A study of Mus musculus with 8 samples.

Results

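The interstitial stroma markers are 33 genes of the embryonic kidney interstitium, chosen by name and looked up on the array through the RefSeq accession of each probe. Where a gene had several probes, the one with the highest mean Cy5 signal stands for it. All 33 had a probe among the 37018 genes on the array, and 32 of them passed the filter on dim probes. They were tested among 22662 genes in all, of which 14989 had a gene symbol. The rest were accessions or probes without a symbol, each counted as a gene in the shares of all genes below. All members have a symbol. Expression was measured on 8 two-colour oligonucleotide arrays (Agilent whole mouse genome design) in nephron progenitors sorted at embryonic day 15.5 from C57BL/6 mice.

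Mutant cells came from 4 pools of kidneys with the Six2CreEGFP transgene and floxed Hdac1 and Hdac2 alleles (HDAC1&2f/f), the genes of a pair of histone deacetylases. Wildtype cells came from 4 pools with the same transgene and unfloxed alleles (HDAC1&2+/+), so the controls carry the transgene as well. The transgene places Cre recombinase and enhanced green fluorescent protein (EGFP) under Six2 control, so both are made by nephron progenitors in the cap mesenchyme, and the sort was for EGFP. The number of embryos in a pool is not given in the labels. Each pool was labelled with Cy5 and hybridised against Cy3-labelled RNA of wildtype pool 1, so each value below is a log2 ratio of a sample over that one RNA, and on the wildtype pool 1 array both dyes held one RNA. The samples of pools 3 and 4 of each genotype differed by no more than repeat Cy3 measurements of one RNA, so they were averaged and counted as 1 sample. Values in the text therefore come in the order pool 1, pool 2, mean of pools 3 and 4, with 3 samples per genotype, and all differences are mutant minus wildtype.

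The interstitial stroma is the mesenchyme between the nephrons and the collecting ducts. Its progenitors express the transcription factor Foxd1, lie around the cap mesenchyme, and give rise to fibroblasts, pericytes, mesangial cells and vascular smooth muscle. These cells deposit a matrix of fibrillar collagens, proteoglycans and elastic fibres and signal to the neighbouring nephron progenitors. Several of the 33 genes, such as Vim, Fn1 and Sparc, are also made by other mesenchymal cells, so the list does not mark the stroma alone. In these bulk samples signal from stromal cells carried along and from the sorted progenitors cannot be told apart, nor can fewer cells of a type and less RNA per cell.

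Of 22 listed nephron progenitor markers, 21 were above background on all 8 arrays, as was a probe of 20430 of the 22662 genes tested. Detection alone does not tell which cells were sorted, since 32 of the stroma members met it too. Six2 itself differed by -0.13 ± 0.14 (difference ± SE, adjusted p = 0.839, limma). Hdac1, at the brightest of its 3 probes that passed the filter, differed by -0.30 ± 0.09, with all 3 mutant samples below all 3 wildtype samples. The same order held for 1328 of the 22328 genes with a value in every sample. Hdac2 differed by -0.13 ± 0.14, and neither gene passed the adjusted threshold of 0.05 in limma (adjusted p = 0.476 and 0.84). The position of the Hdac1 and Hdac2 probes against the floxed exons was not examined. The wildtype 2 and mutant 1 arrays stood apart from the rest. The wildtype 2 array had 48627 probes above background in Cy5, against 28150 to 33982 on the other 7 arrays. On the mutant 1 array, different probes of one gene disagreed more, with a median SD of 0.245 on the log2 scale against 0.0826 to 0.142 on the other 7. All 8 arrays lay on 1 slide with a row per genotype, so slide row and genotype cannot be told apart. Same-numbered pools lay in the same slide column, so pool number and column cannot be told apart either.

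The stroma markers were detected in the sorted cells of both genotypes. The 32 tested members were well above background on all 8 arrays, as was a probe of 20430 of the 22662 genes tested. These 32 had already been kept by a filter on the same signal. The exception was Dpt, dermatopontin, a small matrix protein of connective tissue. Its probe was above background on 2 of 4 mutant and 2 of 4 wildtype arrays, and it was not tested. Its log2 ratios were -0.19, -0.16 and 0.14 in mutant cells, against -0.0032, -0.16 and 0.0018 in wildtype cells, and samples of both genotypes lay on either side of 0.

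Most stroma markers read slightly higher in mutant than in wildtype progenitors, but no single marker passed the test. The mutant mean was above the wildtype mean for 27 of the 32 tested members, 84.4%, against 50.5% of all genes tested. The median difference over the members was 0.23 on the log2 scale, against 0.0017 over all genes tested, and single members lay between -0.11 and 0.50. None of the 32 passed an adjusted p of 0.05 in limma, either without the pool number as a block (smallest adjusted p = 0.325, for Thy1) or with it (smallest 0.151, again Thy1), where 0.0441% and 0.15% of all genes passed. At an unadjusted limma p under 0.05, 7 members (21.9%) were higher in mutant cells without the block, against 4.46% of all genes, and 12 (37.5%) were higher with it, against 7.77%, while 0 were lower in either fit. The 7 were Thy1, Pdgfra, Tbx18, Col1a1, Col5a1, Fn1 and Ntn1, and the block added Foxd1, Fap, Col3a1, Col5a2 and Fbn1.

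The direction was also read sample by sample and pair by pair. All 3 mutant samples lay above all 3 wildtype samples for 6 members (18.8%), namely Thy1, Pdgfra, Meis1, Col5a1, Col5a2 and Ntn1, against 8.72% of all genes with a value in every sample, and for 0 members did they all lie below. An exact permutation test of 3 against 3 samples gives p = 0.1 for each of the 6, two-sided, which is the smallest it can give. The difference was above 0 in all 3 pairs of same-numbered pools for 18 members (56.2%), against 23% of all genes, and below 0 in all 3 pairs for 0. The members vary together across the samples, so these counts do not rest on 32 independent observations. The median difference was 0.27 in the pool 1 pair, 0.08 in the pool 2 pair and 0.29 in the pair of pools 3 and 4.

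**Figure D1:**
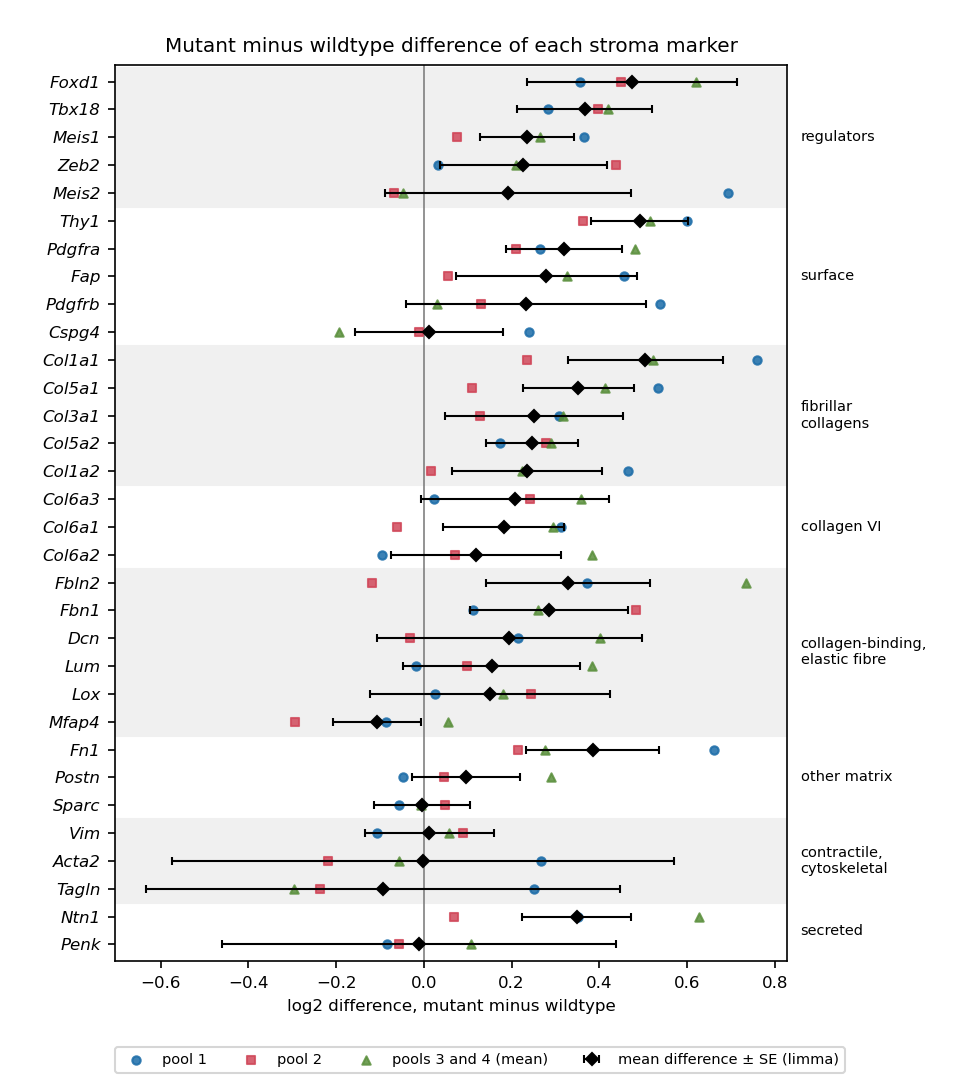
Mutant minus wildtype difference of each of the 32 tested stroma markers on the log2 scale, grouped by role, with a coloured point for each pair of same-numbered pools and a black diamond for the mean difference with its limma standard error. In this scaling 27 of 32 diamonds lie right of 0 (18 when centred on spike-ins), while the error bars of Acta2, Tagln and Penk reach far to both sides.

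How far the median stood above 0 depended on the samples and on the scaling. Without the mutant samples of pools 3 and 4 it was 0.13, with 21 of 32 members higher, and without the mutant 2 array it was 0.32, with 30 of 32 higher and 12 not overlapping, against 16.7% of all genes. Without the wildtype samples of pools 3 and 4 it was 0.29, and 10 members did not overlap, against 12.5% of all genes. Without the wildtype 2 array it was 0.16, with 24 members higher, and 10 members then did not overlap, against 11.3% of all genes. Without the mutant 1 array it was 0.21, with 25 higher and 8 not overlapping, against 15.96% of all genes. The count of 7 at an unadjusted p was 3 without the wildtype 1 array, 4 without wildtype pools 3 and 4, 3 without the mutant 1 array, 2 without mutant pools 3 and 4 and 10 without the mutant 2 array, and the count of 12 with the block was 3 without the pair of pools 3 and 4. Scaling the log ratios to a common spread between arrays gave a median of 0.13, with 3 members at an unadjusted p under 0.05. Centring on the spike-in controls moved the median of all genes to -0.20 and that of the members to 0.032, with 18 of 32 members and 13.8% of all genes then higher in mutant cells, and 0 members at an unadjusted p under 0.05 in limma. Relative to the median of all genes, the member median was 0.23 without scaling between arrays and 0.13 when scaled. It was also 0.23 when centred on spike-ins, but that centring shifts all genes of an array alike. The gap to all genes is then kept by construction.

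The regulators of stromal identity were higher in mutant cells on average in 5 of 5 cases (4 when centred on spike-ins), with a median difference of 0.24. Foxd1, the forkhead factor that marks stromal progenitors, had log2 ratios of 0.37, 0.93 and 0.33 in mutant cells, against 0.01, 0.48 and -0.29 in wildtype cells. The mutant sample was the higher of its pair each time, by 0.36, 0.45 and 0.62, yet the genotypes overlapped, since wildtype pool 2 lay above mutant pool 1 and mutant pools 3 and 4. The difference was 0.48 ± 0.24, a fold of 1.39 with a 95% interval of -0.09 to 1.04 on the log2 scale (adjusted p = 0.754, limma), and blocking on pool number lowered the standard error to 0.09 (adjusted p = 0.166). Tbx18, a T-box factor of the mesenchyme around the ureter and of its smooth muscle lineage, was likewise highest in pool 2 and lowest in pools 3 and 4 of each genotype. Its ratios were 0.38, 0.61 and 0.20 in mutant cells, against 0.09, 0.21 and -0.21 in wildtype cells, a difference of 0.37 ± 0.15 (adjusted p = 0.684, limma) or, with the block, an SE of 0.08 (adjusted p = 0.211).

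The promoter windows of these 2 genes are shown because they had the most even differences over the 3 pairs among the regulators. Each runs from 250 bases before to 50 bases after the annotated start (RefSeq, GRCm38.p6), 5′ to 3′ on the strand of the gene, with motifs found on either strand in capitals. The motifs searched were the GC box, spelled GGGCGG, then the 5-letter box CCAAT, and as the third motif the TATA type. For the TATA type the 6 letters searched were TATANA. A further motif searched was the CArG box, spelled CC, then 6 letters that are each A or T, then GG. None of the motifs printed overlaps another. Foxd1 lies at chr13:98353995-98354294, plus strand, and Tbx18 at chr9:87731211-87731510, minus strand.
Foxd1: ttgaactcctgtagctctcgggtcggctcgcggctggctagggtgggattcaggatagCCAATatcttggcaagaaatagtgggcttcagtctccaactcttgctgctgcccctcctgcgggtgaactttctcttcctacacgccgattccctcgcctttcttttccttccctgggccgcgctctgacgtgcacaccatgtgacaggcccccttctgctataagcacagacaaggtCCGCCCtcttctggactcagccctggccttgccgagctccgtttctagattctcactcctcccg
Tbx18: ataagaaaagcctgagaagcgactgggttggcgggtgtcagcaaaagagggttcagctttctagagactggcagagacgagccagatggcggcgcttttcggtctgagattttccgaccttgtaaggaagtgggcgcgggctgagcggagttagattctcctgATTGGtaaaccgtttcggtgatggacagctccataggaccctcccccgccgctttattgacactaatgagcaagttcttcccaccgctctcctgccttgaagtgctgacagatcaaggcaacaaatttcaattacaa
The Foxd1 window held a CCAAT box and, as its reverse complement, a GC box, and the Tbx18 window held a reversed CCAAT box. Of the 33 members, 20 had a window, with 25 windows in all since some genes have several starts. Of these 25 windows, 11 held a GC box, 8 a CCAAT box and 9 a TATA-type motif, while 35.7%, 37.4% and 24.7% of all 32851 windows of this length held them. A CArG box was in 0 of the 25, and in 1.63% of all windows. A match describes the letters and not a site in use.

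The other regulators were less even. Meis1, a homeobox cofactor found in stromal nuclei, had ratios of 0.53, 0.42 and 0.36 in mutant cells, against 0.16, 0.34 and 0.09 in wildtype cells. Its mutant samples all lay above its wildtype samples, by the narrow margin of the mutant pools 3 and 4 over wildtype pool 2, and the difference was 0.24 ± 0.11 (adjusted p = 0.731, limma). Its relative Meis2 had 0.80, -0.15 and -0.29 in mutant cells, against 0.10, -0.08 and -0.24 in wildtype cells. Only the mutant 1 sample stood out, so the mean difference of 0.19 ± 0.28 (adjusted p = 0.876, limma) rests on it, and in the other pairs the differences were -0.07 and -0.05. Zeb2, a zinc-finger repressor of epithelial genes, averaged 0.09 ± 0.19 in mutant and -0.13 ± 0.35 in wildtype (SD, n = 3 each), with the wildtype 2 sample lowest. A second Zeb2 probe gave a difference of -0.03 against 0.23 for the brightest one, so the probes disagree on direction.

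Among receptors and surface proteins all 5 means were higher in mutant cells (4 when centred on spike-ins), with a median difference of 0.28. Thy1, a lipid-anchored glycoprotein of fibroblasts, had the smallest p of the list. Its log2 ratios were 0.68, 0.35 and 0.54 in mutant cells, against 0.08, -0.0074 and 0.02 in wildtype cells. All mutant samples lay well above all wildtype samples, which were within 0.1 of the common RNA. The difference of 0.49 ± 0.11 is a fold of 1.41 with a 95% interval of 0.23 to 0.75 on the log2 scale (adjusted p = 0.325, limma), and pairs differed by 0.60, 0.36 and 0.51. With pools 3 and 4 kept as separate samples, Thy1 passed the threshold (difference 0.50, adjusted p = 0.0292, limma). It was the only member, and this the only setting of those run, for which this happened. In that setting 257 of all 22662 genes passed, against 10 in the main fit. It counts as separate samples pools that differed by no more than repeat measurements of one RNA.

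Pdgfra and Pdgfrb are the receptors for platelet-derived growth factors, marking fibroblasts and pericytes. Pdgfra had 0.33, 0.09 and 0.52 in mutant cells, against 0.07, -0.12 and 0.04 in wildtype cells. The mutant samples all lay above the wildtype ones, by a small gap at the mutant 2 sample, with a difference of 0.32 ± 0.13 (adjusted p = 0.671, limma). Pdgfrb had 0.65, -0.35 and 0.09 in mutant cells, against 0.11, -0.48 and 0.06 in wildtype cells. Pool 2 was the lowest sample in both genotypes and mutant pool 1 the highest of all, so the genotypes overlapped and the difference was 0.23 ± 0.27 (adjusted p = 0.85, limma). Fap, a fibroblast surface protease, averaged 0.39 ± 0.22 in mutant and 0.11 ± 0.37 in wildtype (SD, n = 3 each), and Cspg4 (NG2), a pericyte proteoglycan, averaged -0.13 ± 0.28 in mutant and -0.14 ± 0.19 in wildtype. Fap differed by 0.28 ± 0.21 and Cspg4 by 0.01 ± 0.17, and both overlapped between genotypes.

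The fibrillar collagens, which form the tension-bearing fibres of the interstitium, were higher on average in 5 of 5 cases, also when centred on spike-ins, with a median difference of 0.25. Col1a1, a chain of type I collagen, had the largest difference of the whole list. Its log2 ratios were 0.76, 0.15 and 0.70 in mutant cells, against 0.0011, -0.08 and 0.18 in wildtype cells. Mutant pool 1 and pools 3 and 4 were clearly the highest, but the mutant 2 sample lay just under the highest wildtype sample. The difference was 0.50 ± 0.18, a fold of 1.42 with a 95% interval of 0.09 to 0.92 on the log2 scale (adjusted p = 0.584, limma), and 0.228 with the block. Col1a2, the partner chain, had 0.51, 0.04 and 0.58 in mutant cells, against 0.04, 0.03 and 0.35 in wildtype cells, so the samples of pool 2 were nearly equal and the difference was 0.24 ± 0.17 (adjusted p = 0.819, limma).

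The Col1a2 window, at chr6:4505368-4505667, plus strand of the same build, is shown as the one member window with repeated boxes among those printed, again with GC and CCAAT boxes in capitals.
Col1a2: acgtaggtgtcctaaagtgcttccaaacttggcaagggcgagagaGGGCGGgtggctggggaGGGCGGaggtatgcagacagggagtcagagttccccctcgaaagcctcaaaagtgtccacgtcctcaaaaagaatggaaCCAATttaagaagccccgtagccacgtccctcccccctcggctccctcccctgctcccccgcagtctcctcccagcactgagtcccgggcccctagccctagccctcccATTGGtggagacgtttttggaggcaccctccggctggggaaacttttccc
It held 2 GC boxes and 2 CCAAT boxes, the second of these on the reverse strand.

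Col3a1, the type III collagen chain of soft connective tissue, had 0.27, -0.24 and 0.43 in mutant cells, against -0.04, -0.37 and 0.11 in wildtype cells. Pool 2 was lowest in both genotypes, each mutant sample was the higher of its pair, and the difference was 0.25 ± 0.20 (adjusted p = 0.819, limma). The type V collagens regulate fibril diameter, and both of their genes on the list separated the genotypes by a narrow margin. The lowest mutant against the highest wildtype sample was 0.19 against 0.16 for Col5a1 and 0.22 against 0.19 for Col5a2. Of all genes with a value in every sample, 8.72% separated in this direction. Col5a1 averaged 0.43 ± 0.20 in mutant and 0.08 ± 0.08 in wildtype (SD, n = 3 each), a difference of 0.35 ± 0.13 (adjusted p = 0.611, limma), and Col5a2 averaged 0.32 ± 0.08 in mutant and 0.07 ± 0.12 in wildtype, a difference of 0.25 ± 0.10 (adjusted p = 0.692). Col3a1 and Col5a2 are neighbours on chromosome 1 and had almost the same mean difference, though their pool 2 samples differed.

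Collagen VI forms beaded microfibrils around cells. Its 3 genes on the list were higher on average (1 of 3 when centred on spike-ins), with a median difference of 0.18. Col6a1, Col6a2 and Col6a3 differed by 0.18 ± 0.14, 0.12 ± 0.19 and 0.21 ± 0.21. For each of them the highest of the 6 samples was mutant pools 3 and 4, at 0.49, 0.63 and 0.51, and the genotypes overlapped. Col6a1 and Col6a2 are neighbours on chromosome 10. Centred on spike-ins, Col6a1 and Col6a2 changed sign, to -0.016 and -0.08.

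Of the 6 collagen-binding and elastic-fibre proteins, 5 had a higher mutant mean (2 when centred on spike-ins) and none separated the genotypes. Fbn1, fibrillin of elastic microfibrils, averaged 0.72 ± 0.30 in mutant and 0.43 ± 0.21 in wildtype (SD, n = 3 each), a difference of 0.28 ± 0.18. Fbln2, fibulin that binds them, averaged 0.42 ± 0.07 in mutant and 0.09 ± 0.38 in wildtype, with a wide spread within wildtype and a difference of 0.33 ± 0.19. The small proteoglycans Dcn and Lum, which coat collagen fibrils and lie side by side on chromosome 10, differed by 0.20 ± 0.30 and 0.15 ± 0.20, with the largest pair difference in pools 3 and 4 (0.40 and 0.38). Lox, the enzyme that cross-links collagen, differed by 0.15 ± 0.27, and by 0.0027 with a second probe.

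Mfap4, a microfibril-associated glycoprotein, had the most negative difference of the list. Its ratios were -0.10, -0.18 and -0.06 in mutant cells, against -0.02, 0.11 and -0.11 in wildtype cells. The samples overlapped within a narrow range, the difference was -0.11 ± 0.10 (adjusted p = 0.828, limma), and it was 0.0066 when arrays were centred on their median without loess. Among the other matrix glycoproteins Fn1, the fibronectin that links matrix to integrins, had 0.76, 0.25 and 0.58 in mutant cells, against 0.10, 0.04 and 0.30 in wildtype cells. The mutant sample of each pair was higher and mutant pool 1 highest of all, with a difference of 0.38 ± 0.15 (adjusted p = 0.657, limma). Postn, periostin, averaged 0.17 ± 0.18 in mutant and 0.08 ± 0.10 in wildtype (SD, n = 3 each). Sparc, a collagen-binding matricellular protein, averaged 0.39 ± 0.10 in mutant and 0.39 ± 0.13 in wildtype, a difference of -0.0047 ± 0.11, and its second probe averaged 0.15 in mutant and 0.04 in wildtype, a difference of 0.11. Sparc was at 0.43 on the array with the same RNA in both dyes, the highest of all members there, where members ranged from -0.18 to 0.43 with a median of 0.04.

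The contractile and cytoskeletal genes had differences near 0, and Acta2 and Tagln had the largest standard errors of the list. Acta2, the smooth muscle actin of vascular smooth muscle and myofibroblasts, had 0.29, -1.26 and 0.58 in mutant cells, against 0.03, -1.04 and 0.64 in wildtype cells. Pool 2 was far below the other pools in mutant and wildtype cells alike, and within a pool the genotypes were close. The difference was -0.0024 ± 0.57 (adjusted p = 0.999, limma), and the block lowered its standard error to 0.12. Tagln, an actin-binding protein of smooth muscle, had 0.10, -1.39 and 0.21 in mutant cells, against -0.15, -1.16 and 0.51 in wildtype cells. It showed the same low pool 2 and a difference of -0.09 ± 0.54 (adjusted p = 0.975, limma), 0.13 being the SE with the block. Vim, the intermediate filament of mesenchymal cells, had -0.22, 0.07 and 0.25 in mutant cells, against -0.11, -0.01 and 0.19 in wildtype cells. Its genotype means lay close together, with a difference of 0.01 ± 0.15 (adjusted p = 0.989, limma). Its samples spanned 0.47 within mutant and 0.30 within wildtype.

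The Acta2 window, at chr19:34255324-34255623, minus strand, is shown because this gene varied most between pools, with its TATA-type motif in capitals.
Acta2: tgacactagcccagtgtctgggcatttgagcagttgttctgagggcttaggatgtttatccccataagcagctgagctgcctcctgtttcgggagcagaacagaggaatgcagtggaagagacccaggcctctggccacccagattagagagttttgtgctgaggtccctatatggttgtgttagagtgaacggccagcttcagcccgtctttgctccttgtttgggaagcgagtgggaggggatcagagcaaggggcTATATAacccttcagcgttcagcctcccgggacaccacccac
This window held 1 TATA-type motif and no exact match to the other motifs searched.

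The secreted signals behaved differently from each other. Ntn1, the guidance factor netrin 1, averaged 0.17 ± 0.14 in mutant and -0.17 ± 0.16 in wildtype (SD, n = 3 each), without overlap, and its difference was 0.35 ± 0.12 (adjusted p = 0.6, limma), or 0.30 with a second probe. Penk, which encodes the enkephalin precursor, had -0.13, -0.98 and 0.53 in mutant cells, against -0.04, -0.92 and 0.42 in wildtype cells. Its pool 2 samples were the lowest in both genotypes and the difference was -0.01 ± 0.45 (adjusted p = 0.997, limma).

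**Figure D2:**
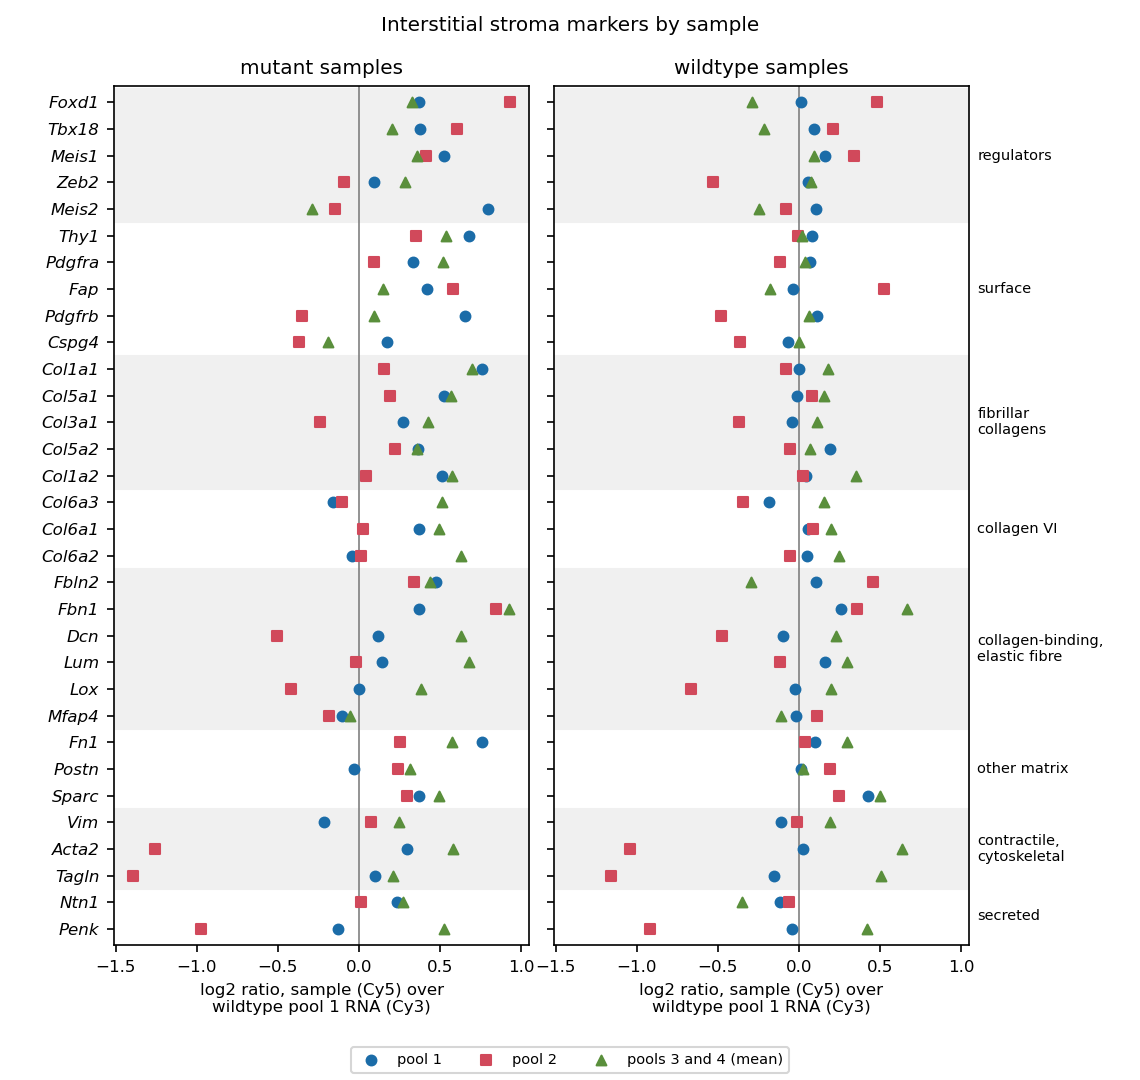
Log2 ratio over wildtype pool 1 RNA of each tested stroma marker in the 3 mutant samples (left) and the 3 wildtype samples (right), with a marker shape for each pool. The pool 2 squares of Acta2, Tagln and Penk lie below -0.9 in both panels, while those of Foxd1 and Fap lie near 0.5 or above.

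The stroma markers also varied between pool numbers in ways that both genotypes shared. Since same-numbered pools shared a slide column, a pattern by pool number may belong to the pools or to the column. In an F test of pool number with genotype kept in the model, 0 of 32 members passed at an adjusted p of 0.05 in limma (smallest 0.0522, for Penk), where 0.154% of all genes passed. At an unadjusted p under 0.05, 17 members (53.1%) did, against 15.9% of all genes. Pool 2 was below the mean of the other pools in both genotypes for 21 of 32 members (65.6%), against 38.4% of all genes, above it in both for 4, and mixed for 7. The largest such gaps were -1.69 in mutant and -1.37 in wildtype for Acta2, -1.55 in mutant and -1.33 in wildtype for Tagln and -1.18 in mutant and -1.11 in wildtype for Penk, all on the log2 scale. Dcn was at -0.88 in mutant and -0.54 in wildtype, Lox at -0.61 in mutant and -0.75 in wildtype, and Pdgfrb at -0.72 in mutant and -0.57 in wildtype. The 4 members above in both were Postn at 0.10 in mutant and 0.17 in wildtype, Foxd1 at 0.58 in mutant and 0.62 in wildtype, Fap at 0.30 in mutant and 0.63 in wildtype and Tbx18 at 0.32 in mutant and 0.27 in wildtype, so Foxd1 and Acta2 stood on opposite sides of the other pools in pool 2.

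The spread was compared with that of repeat measurements of one RNA. The Cy3 channel held one RNA on all 8 arrays, and there the SD of a member's log2 level was 0.094 to 0.215, with a median of 0.131. Relative to the array median, each tested member's Cy3 level on the wildtype 2 array lay below the mean of the other arrays. The gaps ran from -0.56 (Sparc) to -0.20 (Tbx18), and their bearing on the wildtype pool 2 values was not tested. In the Cy5 channel it was 0.0892 to 0.814, with a median of 0.267, and Acta2 had 0.81 in Cy5 against 0.13 in Cy3. Markers of other cells also differed in pool 2. The renal vesicle markers had a pool 2 median of -0.63 in mutant and -0.32 in wildtype cells, their lowest sample in each genotype, while the nephron progenitor markers had -0.06 and 0.11, their highest. The macrophage markers had a pool 2 median of -0.35 in mutant and -0.38 in wildtype cells, the ureteric bud markers -0.19 and -0.30, and the endothelial markers -0.09 and -0.41. Erythroid markers were at -0.08 and -0.09, and the further stroma and matrix genes at -0.03 and -0.03. The stroma members themselves had 0.03 and -0.05, their lowest sample in each genotype, while all genes had medians of 0.0013 and -0.05. What part the markers of other cells have in the stroma pattern was not tested.

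**Figure D3:**
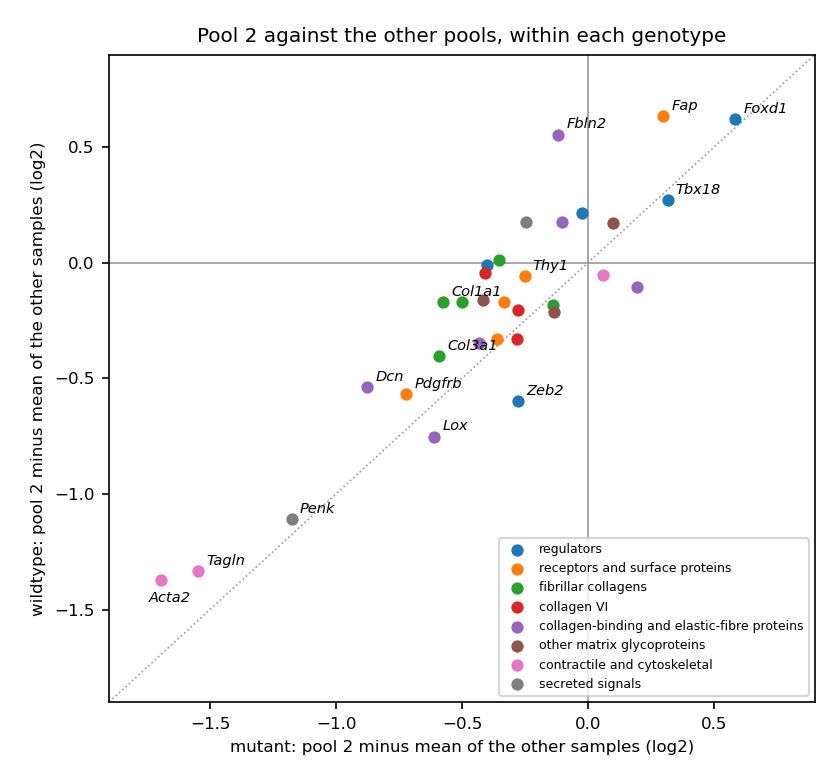
Level of pool 2 relative to the mean of the other samples of the same genotype for each tested stroma marker, with mutant cells on one axis and wildtype cells on the other, in log2 units. Most points fall in the quadrant where pool 2 is lower in both genotypes, with Acta2, Tagln and Penk farthest out and Foxd1, Fap and Tbx18 on the opposite side.

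A further list of stroma and matrix genes had a smaller median difference than the members, and the gap between the lists was not tested. Of 45 tested, 33 had a higher mutant mean, 0 passed in limma with or without the block, and the median difference was 0.06. The 2 with the largest differences were Fbn2, a second fibrillin, at 0.57 ± 0.25, and Ltbp1, which tethers latent TGF-beta to the matrix, at 0.47 ± 0.29, and both rested mostly on the pool 1 pair (1.08 and 1.11). The nephron progenitor markers went the other way, with 6 of 22 higher and a median of -0.30, as did the renal vesicle markers, with 3 of 15 higher and a median of -0.40. Of the progenitor markers 2 were lower past the threshold in limma, Cited1, a transcriptional cofactor of uncommitted progenitors, at -2.72 ± 0.13 (adjusted p = 0.0028) and Traf1, a signalling adaptor, at -1.85 ± 0.10 (adjusted p = 0.0029), and with the block Meox2, a homeobox factor, was also lower past it (-1.92, adjusted p = 0.0313). Among the renal vesicle markers 0 of 15 passed, and the largest differences were -1.26 ± 0.65 for Irx1 and -1.14 ± 0.33 for Hes5.

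Markers of other cells that a sort could carry along had smaller median differences than the stroma members. Endothelial markers had a median difference of 0.16 with 14 of 18 higher, ureteric bud markers 0.08 with 8 of 16, macrophage markers 0.03 with 9 of 14, and erythroid markers 0.03 with 8 of 12. None of these 4 lists had a gene past the threshold in limma in either fit. The largest differences per list included 0.49 ± 0.25 for Cdh5 and 0.35 ± 0.19 for Flt1 (endothelium), -0.83 ± 0.40 for Foxi1 (ureteric bud), -0.61 ± 0.09 for Cd74 and -0.38 ± 0.21 for Lyz2 (macrophage), and 0.26 ± 0.23 for Hba-a2 and -0.19 ± 0.10 for Klf1 (erythroid). The difference between the stroma list and these lists was not tested.

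**Figure D4:**
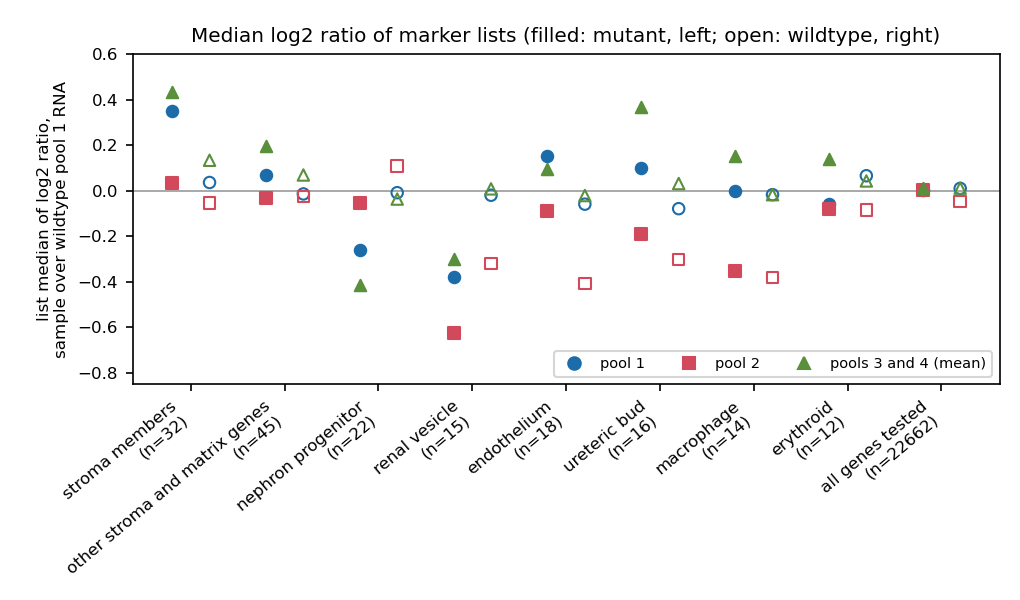
Median log2 ratio over wildtype pool 1 RNA of each marker list in the mutant and wildtype samples, by pool. The stroma members lie higher in each mutant sample than in its same-numbered wildtype sample, as do the endothelial, ureteric bud and macrophage markers. The nephron progenitor and renal vesicle markers lie lower in each, and the erythroid and the further stroma and matrix lists are mixed. These are list medians per sample, and medians of the gene-by-gene pair differences can have another sign. In pool order those were -0.04, -0.05 and 0.14 for the macrophage list, and 0.14, 0.02 and 0.15 for the further stroma and matrix list.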

How the data were processed

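RNA of 4 mutant and 4 wildtype pools was measured on 8 arrays, grouped by the labels. The deposited scanner files give the linear intensity of each spot as read by Agilent Feature Extraction (version 10.7.3.1 per the submitters' processing notes). A deposited value table gives the log10 ratio (Cy5 to Cy3) of each spot and served only to check the direction, with a median of 0 on 7 arrays and 0.00483 on wildtype 2.

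Median spot signals were background-corrected (normexp, offset 50) and loess-normalized within arrays with limma 3.58.1 in R 4.3.3, control and outlier spots at weight 0. Probes had to be well above background in the Cy5 dye on 3 or more of a group's 4 arrays, which left 30364 of 55681 probes. RefSeq accessions named 27509 of all 55681 probes with 20887 symbols. A probe without a symbol was counted as a gene under its own accession or probe name. One probe per gene, the brightest in Cy5, gave 22662 genes, of which 334 lacked a value in at least 1 sample. These stayed in the fit on the samples that had one and were left out of the counts of overlap and of pairs. The number of arrays limits precision. Saturated Cy5 probes numbered 0 on each array.

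Pools 3 and 4 differed by a median absolute deviation of 0.0604 in mutant and 0.0565 in wildtype cells in Cy5, within the 0.0455 to 0.0784 seen between Cy3 levels of one RNA (21 array pairs without wildtype 2), and were averaged. The labels call pools biological replicates, but no source used here says whether pools share animals, so p-values may measure technical spread. Tests were limma (two-sided, Benjamini-Hochberg over all genes tested), without and with pool number as a block. Deviations of same-numbered samples correlated at 0.495, 0.543 and 0.527, so the numbers were taken as pairs. Such pairs also shared a slide column.

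The members and lists were chosen with earlier results of these data known, so no test over the list was made. Every member is named. Sample values are given for the main regulators, receptors, collagens and contractile genes and the 3 most positive and 3 most negative members. Of each other list, genes past the threshold and the 2 largest differences are named, except 1 gene that is not reported here. Promoter windows come from RefSeq (GRCm38.p6). Alternatives covered signals, normalization, filter, probe choice, variance model and each sample left out.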

Additional observations from a re-analysis of the deposited data

How the results depend on the processing

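Over 29 alternatives the number of members past the adjusted threshold stayed at 0, except with pools 3 and 4 as separate samples, where Thy1 passed and the count was 1. The count of all genes past it, 10, moved more: with pool number as a replicate block it was 34, with pools 3 and 4 separate 257, with array weights 103, with a trended and robust variance 5, with log ratios scaled between arrays 2, centred on spike-ins 5, with Cy5 alone 2, and with quantile normalization over both channels, chosen after seeing the data, 4. Leaving out samples gave 0 to 47. The replicate block changed no member call at the adjusted threshold. The member median of 0.23 stayed between 0.13 and 0.32, except that it was 0.032 when centred on the 10 spike-in probes, where the median of all genes was -0.20, and 18 to 32 members were higher in mutant cells. Under median centring without loess 5 members turned from below to above 0, Mfap4 (0.0066), Acta2 (0.11), Tagln (0.02), Sparc (0.11) and Penk (0.10). Under spike-in centring 9 turned to below 0, Col6a1 (-0.016), Col6a2 (-0.08), Meis2 (-0.0058), Lum (-0.04), Dcn (-0.0029), Postn (-0.10), Vim (-0.19), Cspg4 (-0.19) and Lox (-0.05). Over all 29 alternatives 16 of 32 members kept their sign. The cause of these shifts was not tested. Aquantile leaves the log ratios as they are by construction, and the replicate block and the trended, robust variance change only the standard errors of the members. Both changes of the dim-probe filter also left the member median at 0.23 with 27 higher. The counts over 29 alternatives include these settings. Signal over background limits Dpt, which was too dim to test.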
